A study of Homo sapiens with 14 samples.

Results

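The E proteins and their ID inhibitors were followed in Kasumi-1 cells, a line from a human acute myeloid leukaemia with the AML1-ETO fusion of RUNX1 and RUNX1T1. The genes were 6 of the 11963 with a single symbol on the array: the E proteins TCF3 (also called E2A), TCF4 and TCF12 (also called HEB) and the inhibitors ID1, ID2 and ID3. Every probe set whose only platform symbol was one of these genes was taken, which gave 26 of the 22283 probe sets on the array. TCF3 had 13 of them, TCF4 had 7, TCF12 and ID2 had 2 each, and ID1 and ID3 had 1 each. Below, the probe sets of a gene are lettered from the brightest down (TCF3-a, TCF3-b). One further probe set, which carried the symbols of ID2 and a related locus together, was left out by that rule.

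All 14 arrays held RNA of the same line after 96 h. An siRNA against AML1-ETO was given by lipid reagent (3 arrays) or by nucleofection, an electrical transfection (3 arrays). The control was an siRNA against firefly luciferase, given by lipid (3 arrays) or by nucleofection (2 arrays). Untransfected cells gave 2 arrays and nucleofection without any siRNA gave 1. The siRNA was at 240 nM with lipid and at 1.5 µM with nucleofection, so dose and method cannot be told apart. Whether replicates were separate cultures is not in the labels, so that p-values cover the spread among these arrays alone, and this may be technical. Replicate 3 of luciferase nucleofection and replicate 2 of the untransfected cells were not analysed here. In all of these cells the fusion is the line's own, and 1 cell line was used, so every value is of that line.

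E proteins are basic helix-loop-helix transcription factors that bind E-box DNA as dimers, with each other or with tissue-specific partners such as TAL1 and LYL1. The ID proteins have the dimerization helices without the basic DNA-binding region, and so they hold E proteins in dimers that do not bind DNA. E proteins drive B and T lymphocyte development, TCF4 is needed by plasmacytoid dendritic cells, and ID2 and ID1 are known in blood for roles in innate lymphoid, dendritic and myeloid cells. The ETO part of the fusion contacts the activation domain of E proteins, which is known to block their recruitment of coactivators. The siRNA comparison therefore asks what happens to the RNA of these genes when the fusion is lowered.

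The promoters of ID1 and ID2 are shown because these are the members with a call in the comparisons below. Each stretch holds the 250 bases before the RefSeq start, on the plus strand of GRCh38.p14. The E-box (CANNTG, searched on both strands) is in capitals where it occurs, and the RUNX motif was searched as TGTGGT and TGCGGT on both strands.
ID1, chr20:31605039-31605288: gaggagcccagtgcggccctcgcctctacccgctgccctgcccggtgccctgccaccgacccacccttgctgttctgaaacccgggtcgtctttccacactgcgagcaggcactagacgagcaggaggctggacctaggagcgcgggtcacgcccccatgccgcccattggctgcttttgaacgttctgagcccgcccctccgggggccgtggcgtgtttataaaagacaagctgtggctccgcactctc
ID2, chr2:8681806-8682055: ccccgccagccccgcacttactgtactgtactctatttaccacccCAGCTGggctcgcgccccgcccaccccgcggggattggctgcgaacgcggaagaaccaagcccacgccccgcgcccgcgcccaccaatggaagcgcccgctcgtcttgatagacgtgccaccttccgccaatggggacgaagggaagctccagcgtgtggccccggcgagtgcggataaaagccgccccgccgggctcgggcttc
The ID2 stretch held 1 E-box, whose first base lies at position -205 from the start, and the ID1 stretch held 0. An E-box was found in 61.8% of the 35116 RefSeq promoters of the same length and a RUNX motif in 16.3% of them. The RUNX letters were in 0 of the promoters listed for the 6 genes, which number 1 each for ID1, ID2, ID3 and TCF3, 5 for TCF12 and 10 for TCF4. These matches describe letters in a window and say nothing about binding. In the same build ID1 lies at chr20:31605289-31606510, ID2 at chr2:8682056-8684461 and ID3 at chr1:23557926-23559501. TCF3 lies at chr19:1609292-1652615, TCF4 at chr18:55222185-55635957 and TCF12 at chr15:56918090-57291310.

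Signals are linear MAS5 intensities that the authors scaled to a mean of 138.5 on every array, and signals below 20, the floor used here, are treated as not measured. Of the 22215 probe sets left without controls, between 38.3% and 44.2% lay below that floor on an array. Of 11 Kasumi-1 markers, KIT, a stem cell factor receptor, and MPO, the myeloperoxidase of myeloid granules, were brightest, with median signals of 2027 and 6388. The medians of SPI1, PTPRC, CD34, POU4F1, CEBPA, CD38 and NCAM1 ran from 144 down to 36, with CD38 below the floor on 3 arrays and NCAM1 on 1. HLA-DRA was below it on 8 arrays and ANPEP (CD13) on all 14. RUNX1T1, the fusion partner that checks the siRNA, averaged over the methods, fell by 0.79 on the log2 scale (SE 0.12, limma adjusted p = 0.00413) on its brightest probe set. Its difference was -0.34 by lipid (adjusted p = 1) and -1.24 by nucleofection (adjusted p = 0.00306), and 3 of its 4 probe sets were called for the mean. The call of the brightest was lost under 1 of 27 alternatives, with untransfected and no-siRNA arrays as controls (-0.66, limma adjusted p = 0.0563). Its mean signals were 566 in untransfected cells, 582 without siRNA, 556 with luciferase lipid and 704 with luciferase nucleofection. With AML1-ETO siRNA they were 443 by lipid and 299 by nucleofection. In bulk RNA, fewer cells of a type and less RNA per cell cannot be told apart.

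ID2 was the member that rose with AML1-ETO siRNA. Probe set ID2-a, its brighter one, gave signals of 41.9 and 46.9 in untransfected cells and 41.9 after nucleofection without siRNA. With luciferase siRNA it gave 36.4, 43.9 and 56.6 by lipid and between 46.3 and 50 by nucleofection (2 arrays). With AML1-ETO siRNA it gave 61.3, 72.1 and 72.6 by lipid and 82.8, 128 and 158 by nucleofection. All 6 arrays with AML1-ETO siRNA lay above all 8 other arrays, which was so for 60 of the 13329 probe sets tested (0.45%). The untransfected and luciferase arrays overlapped one another.

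**Figure D1:**
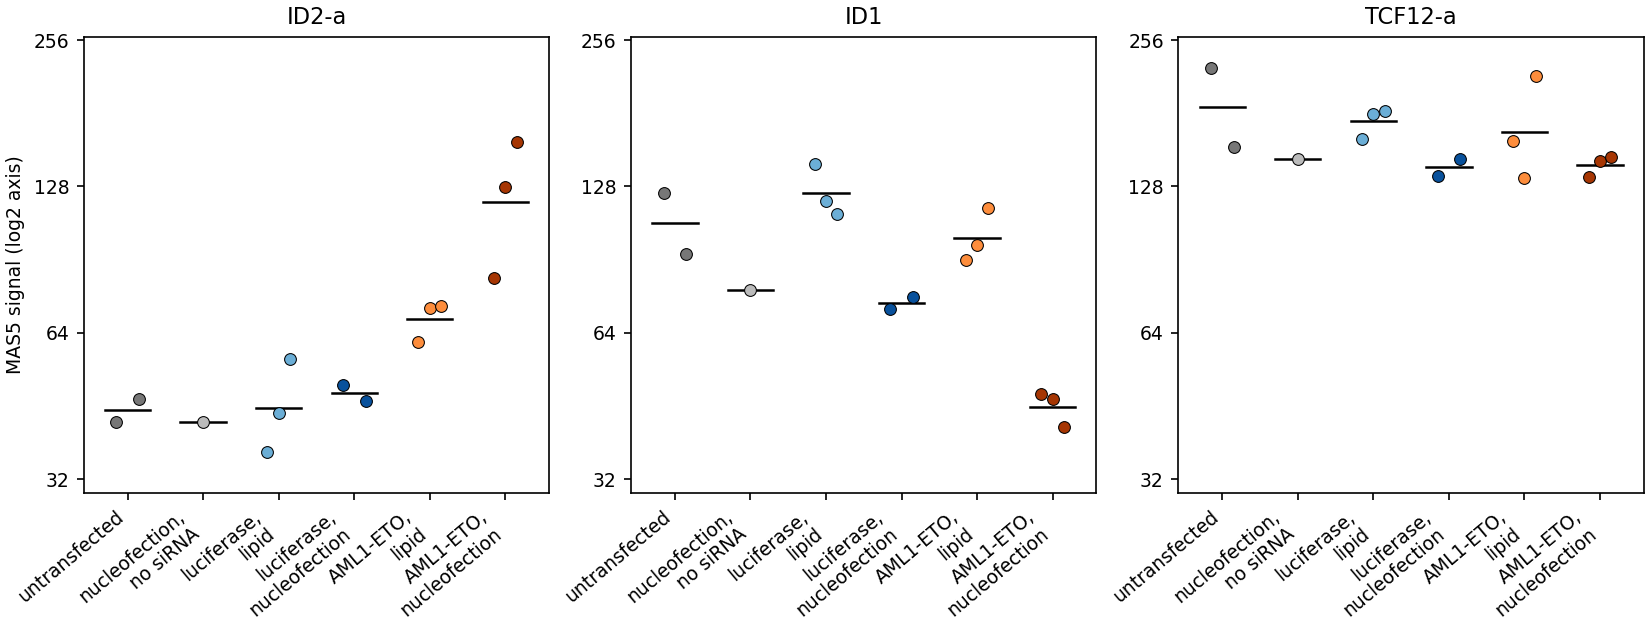
MAS5 signal (log2 axis) of ID2, ID1 and TCF12 on each of the 14 arrays by group; points are arrays and bars are means of the log2 signals. ID2 is highest on the 6 arrays with AML1-ETO siRNA (61.3 to 158), and ID1 is lowest on the nucleofected arrays (41.1 to 78.2). TCF12 (133 to 225) overlaps between the siRNAs within each method.

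Averaged over the methods, ID2-a was 1.94-fold higher with AML1-ETO than with luciferase siRNA, a log2 difference of 0.96 (SE 0.17, limma adjusted p = 0.0143), and higher in 6 of 6 arrays. ID2 was the 1 member called among the 15 tested in this comparison, in which 1.24% of all tested probe sets were called. By nucleofection the mean signal was 123 ± 37.9 (SD, n = 3) with AML1-ETO siRNA and 48.1 ± 2.63 (SD, n = 2) with luciferase siRNA. That log2 difference of 1.30 (SE 0.25, adjusted p = 0.0195) was again the 1 member call, where 2.1% of all probe sets were called. By lipid the signals were 68.7 ± 6.37 (SD, n = 3) and 45.6 ± 10.2 (SD, n = 3). The lipid difference of 0.61 (95% confidence interval 0.12 to 1.10) did not pass (adjusted p = 0.852). No member was called by lipid, where limma called 0.0675% of all probe sets, and ID2-a was the 1 member with an unadjusted p under 0.05, beside 4.86% of all. The difference between the methods in the ID2 effect, -0.69 for lipid minus nucleofection (interval -1.43 to 0.04), did not pass the test either (adjusted p = 0.503). That test called 0 members and 0.0525% of all probe sets, and 0 members had an unadjusted p under 0.05, beside 10.6% of all.

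The ID2 call was near the threshold. For the mean of both methods it was lost with the floor at 64 (log2 difference 0.50, adjusted p = 0.106), without a filter on dim probe sets (adjusted p = 0.051) and without luciferase nucleofection replicate 2 (0.93, adjusted p = 0.0625), and the adjusted p ranged from 0.00307 to 0.106 over its alternatives. For nucleofection it was lost without either luciferase array (replicate 1, 1.36, adjusted p = 0.0844; replicate 2, 1.25, adjusted p = 0.112), without AML1-ETO nucleofection replicate 2 (1.25, adjusted p = 0.0541) or replicate 3 (1.10, adjusted p = 0.0653), and without the filter (adjusted p = 0.0535).

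The dimmer ID2 probe set, ID2-b, lay close to the floor and was below it on 6 of 14 arrays. It passed the filter on dim probe sets only through arrays with AML1-ETO siRNA, so its values are no separate support for ID2-a. Its signals were 11.1 and 10.5 in untransfected cells, 15.4 without siRNA, 21.9, 20.4 and 17.6 with luciferase lipid, and 12.5 and 28.3 with luciferase nucleofection. They were 14.6, 29.9 and 30.5 with AML1-ETO lipid and 37.2, 29.9 and 36.4 with AML1-ETO nucleofection. The nucleofection groups did not overlap and the lipid groups did. Its mean knockdown difference of 0.44 (SE 0.14) did not pass the test (adjusted p = 0.199).

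ID1 followed the transfection method. Its probe set gave 124 and 93.1 in untransfected cells, 142, 119 and 112 with luciferase lipid, and 90.3, 97.1 and 115 with AML1-ETO lipid. After nucleofection it gave 78.2 without siRNA, 71.8 and 75.7 with luciferase siRNA, and 47.8, 46.8 and 41.1 with AML1-ETO siRNA. All 6 nucleofected arrays lay below all 8 others, as they did for 1022 of the tested probe sets (7.67%). Within the nucleofected arrays, the 3 with AML1-ETO siRNA were below the 3 without it.

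Averaged over the siRNAs, lipid against nucleofection gave ID1 a 1.93-fold higher signal by lipid, a log2 difference of 0.95 (SE 0.12, limma adjusted p = 0.000407). It was the 1 member called among 15, in a comparison that called 22.6% of all tested probe sets. The ID1 difference was called under each of its 26 alternatives, between 0.70 and 0.99. The GAPDH log2 ratio of 3-prime to 5-prime signal, a sign of RNA quality, lay between -0.38 and -0.17 on the lipid arrays and between -0.18 and 0.25 on the nucleofected arrays, and its part in the result was not tested. With the array's scale factor as a covariate the ID1 difference was 0.84 (adjusted p = 0.0123).

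The AML1-ETO siRNA effect on ID1 missed the threshold. Averaged over the methods, its log2 difference was -0.51 (SE 0.12, adjusted p = 0.0808). It was -0.30 by lipid (interval -0.66 to 0.06, adjusted p = 1), where the groups overlapped, and -0.71 by nucleofection (interval -1.11 to -0.31, adjusted p = 0.0705), where they did not. The difference between methods was 0.41 (adjusted p = 0.609). The mean effect was called when the filter kept the upper 40% of probe sets (adjusted p = 0.0491). The nucleofection effect was called with that filter (adjusted p = 0.0445) and with quantile normalization (adjusted p = 0.0395). With the floor at 64, which lies above the AML1-ETO nucleofection signals of ID1, the mean effect was -0.25 (adjusted p = 0.241), the nucleofection effect -0.20 (adjusted p = 0.52), and the difference between methods turned to -0.10 (adjusted p = 0.899).

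**Figure D2:**
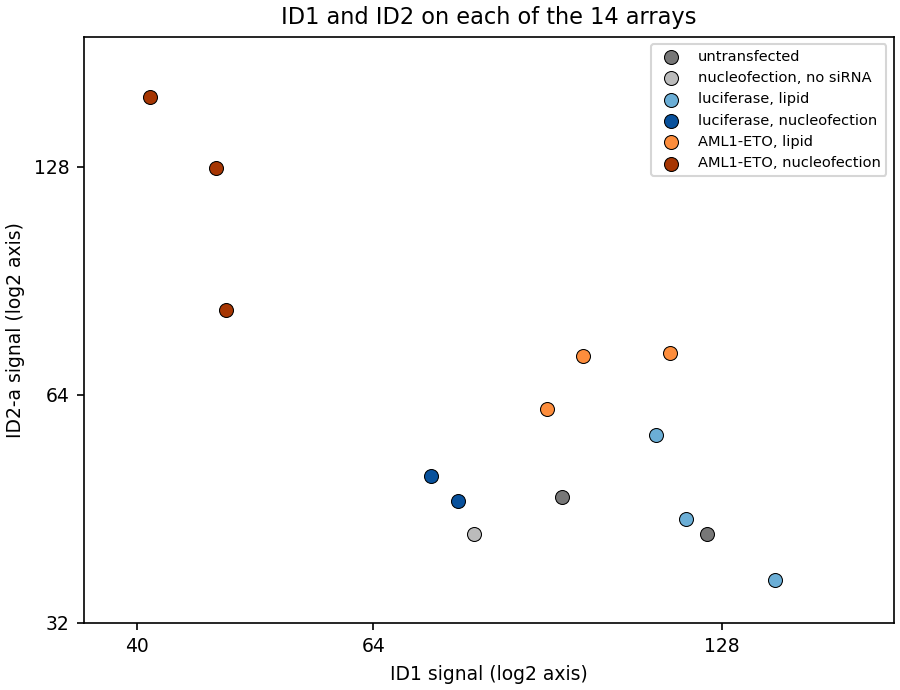
ID1 signal (x) against ID2 signal (y), both on log2 axes, for each of the 14 arrays, coloured by group. The 3 AML1-ETO nucleofection arrays stand apart at an ID1 signal of 41.1 to 47.8 and an ID2 signal of 82.8 to 158, and the other nucleofected arrays share the ID2 range of the untransfected and luciferase arrays.

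Against untransfected cells, which 4 comparisons share as their control, ID1 and ID2 gave the following values. With AML1-ETO nucleofection ID1 was 2.38-fold lower (log2 difference -1.25, SE 0.19, limma adjusted p = 0.00235) and ID2-a was 2.68-fold higher (1.42, SE 0.25, adjusted p = 0.00709). ID2-b was higher by at least 0.78 on the log2 scale (adjusted p = 0.0496), a bound because both untransfected arrays lay below the floor, and this call was lost under 13 of 22 alternatives. These were 3 member calls of 15, beside 6.26% of all tested probe sets. That of ID2-b is no separate support, since ID2-b entered the test only through arrays with AML1-ETO siRNA. With the floor at 64 the ID1 difference was -0.75 (adjusted p = 0.0099) and that of ID2-a 0.89 (adjusted p = 0.0222). Without untransfected replicate 1 all 3 were lost, with an ID1 difference of -1.04 (adjusted p = 0.0509) and an ID2 difference of 1.34 (adjusted p = 0.0859).

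The other comparisons with untransfected cells gave 0 member calls by limma. With AML1-ETO lipid, ID2-a differed by 0.63 (interval 0.08 to 1.17, adjusted p = 0.796) and ID1 by -0.10 (adjusted p = 1), where 0.0675% of all probe sets were called and 1 member had an unadjusted p under 0.05, beside 5.65% of all. With luciferase nucleofection, ID1 differed by -0.54 (interval -0.98 to -0.11, adjusted p = 0.137) and ID2 by 0.12 (adjusted p = 0.844), where 4.88% of all probe sets were called and 3 members had an unadjusted p under 0.05, beside 22.3% of all. With luciferase lipid, ID1 differed by 0.20 and ID2 by 0.02 (adjusted p = 1 for both), where 0.0075% of all probe sets were called and 1 member had an unadjusted p under 0.05, beside 3.65% of all.

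ID3, an inhibitor best known from lymphocytes, was below the floor on all 14 arrays with its 1 probe set. Its signals ran from 0.7 to 18.3, the highest on luciferase nucleofection replicate 2. No difference is given for it.

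TCF4 was not measured above the floor with any regularity. Of its 7 probe sets, 4 (TCF4-d to TCF4-g) were below the floor on all 14 arrays and 0 reached the tested range. The highest TCF4 signal was 28.4, from TCF4-a on 1 luciferase lipid array, and that probe set was below the floor on 12 arrays. TCF4-b was below it on 12 arrays and TCF4-c on 13.

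**Figure D3:**
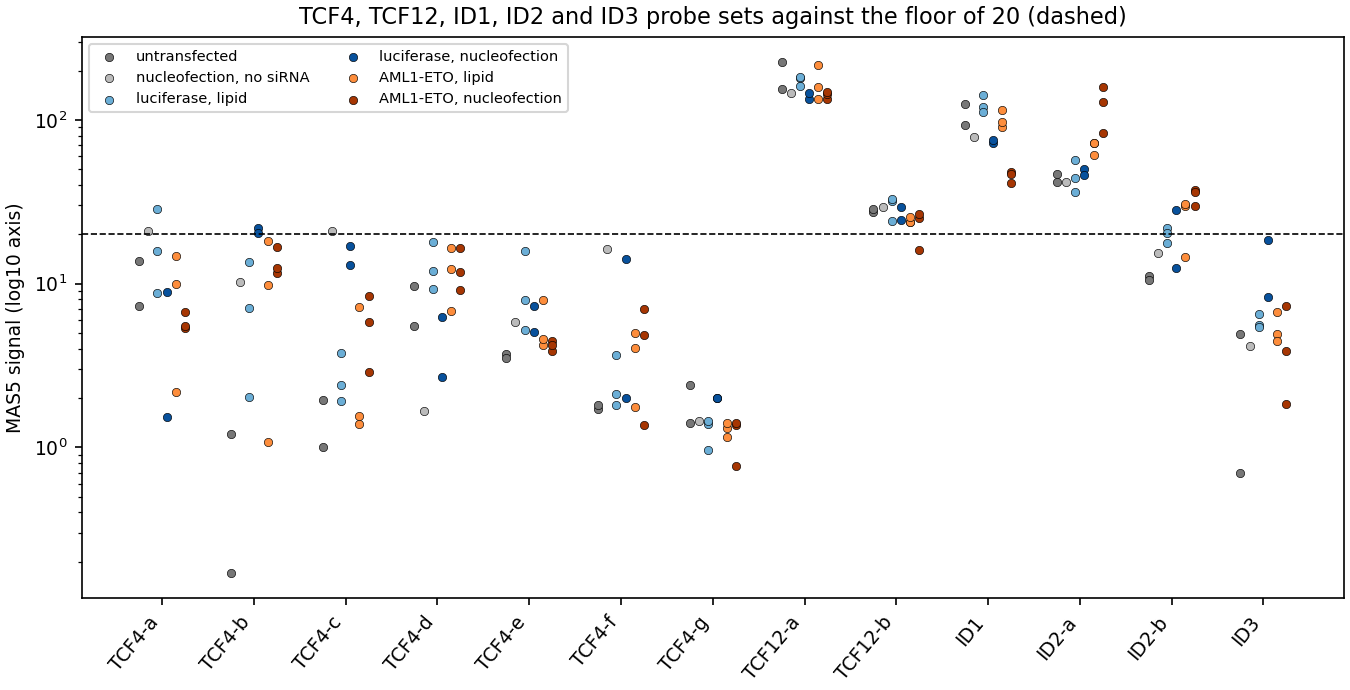
MAS5 signal (log10 axis) of each TCF4, TCF12, ID1, ID2 and ID3 probe set on the 14 arrays, with points coloured by group and the floor of 20 dashed. The TCF4 and ID3 probe sets lie mostly or wholly under the floor, while TCF12-a, ID1 and ID2-a lie above it on every array. Heights are not comparable between probe sets.

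TCF12, the E protein HEB, overlapped between AML1-ETO and luciferase siRNA in both methods. Probe set TCF12-a gave 225 and 154 in untransfected cells, 146 without siRNA, 160, 180 and 183 with luciferase lipid, and 135 and 146 with luciferase nucleofection. It gave 159, 133 and 216 with AML1-ETO lipid and 134, 144 and 147 with AML1-ETO nucleofection. Between the siRNAs the lipid groups overlapped, as did the nucleofection groups. The untransfected and luciferase lipid arrays all lay above every nucleofected array, while AML1-ETO lipid replicate 2 (133) lay below them. The mean knockdown difference was -0.03, with a 95% confidence interval of -0.34 to 0.28 (adjusted p = 0.948), so a fall of up to 0.34 or a rise of up to 0.28 on the log2 scale lies within the error. Lipid and nucleofection differed by 0.27 (interval -0.04 to 0.58, adjusted p = 0.193). The dimmer TCF12 probe set, TCF12-b, ran from 15.9 to 32.7 and had a mean knockdown difference of -0.23 (interval -0.50 to 0.05, adjusted p = 0.455).

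TCF3, the E protein whose splice forms are E12 and E47, had 10 tested probe sets, and 0 of them were called for any of the 9 comparisons in the fit over all 13329 probe sets. Its brightest, TCF3-a, gave 173 and 102 in untransfected cells, 112 without siRNA, 179, 162 and 112 with luciferase lipid, and 127 and 93.6 with luciferase nucleofection. It gave 123, 106 and 214 with AML1-ETO lipid and 67.7, 141 and 120 with AML1-ETO nucleofection, so that each group overlapped its control. The mean knockdown difference was -0.07 (interval -0.60 to 0.46, adjusted p = 0.927).

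The 10 TCF3 probe sets did not vary together. Pearson correlations between pairs of them over the 14 arrays ran from -0.32 to 0.64, as a description of probe sets that share the same libraries. For the mean knockdown effect 8 of the 10 had a difference below 0, from -0.83 to 0.05 in all, with adjusted p-values from 0.262 to 0.993. Probe set TCF3-b gave 140, 137 and 180 with luciferase lipid and 138, 123 and 147 with AML1-ETO lipid, then 124 and 149 with luciferase nucleofection and 100, 103 and 66.3 with AML1-ETO nucleofection. The nucleofection groups of this probe set did not overlap and the lipid groups did, and its mean difference was -0.39 (SE 0.15, adjusted p = 0.268). Probe set TCF3-j was lower without overlap in both methods, with 30.5, 26.6 and 22.3 against 16.5, 19.4 and 16.3 by lipid and 31.6 and 41.2 against 9.8, 31.6 and 29.0 by nucleofection, where the nearest arrays of the groups were equal when rounded. All 3 AML1-ETO lipid arrays of it were below the floor, so its mean difference of -0.42 (adjusted p = 0.262) is a bound in size. Probe set TCF3-f gave 65.6, 85.1 and 98.7 with luciferase lipid and 27.0, 64 and 49.8 with AML1-ETO lipid, without overlap, and its lipid difference of -0.89 (interval -1.79 to 0.01) did not pass (adjusted p = 1). Its nucleofection groups overlapped, with 35.9 and 53.0 against 39.6, 62.1 and 12.8. TCF3-c, TCF3-d, TCF3-e, TCF3-g, TCF3-h and TCF3-i overlapped between the siRNAs in both methods, and TCF3-k to TCF3-m were too dim to test. Over all 15 tested members, 3 had groups without overlap by lipid, where 8.86% of all tested probe sets did, and 5 by nucleofection, where 34.7% did. Non-overlap in the same direction in both methods was seen for 2 members, TCF3-j and ID2-a, and for 2.35% of all tested probe sets.

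**Figure D4:**
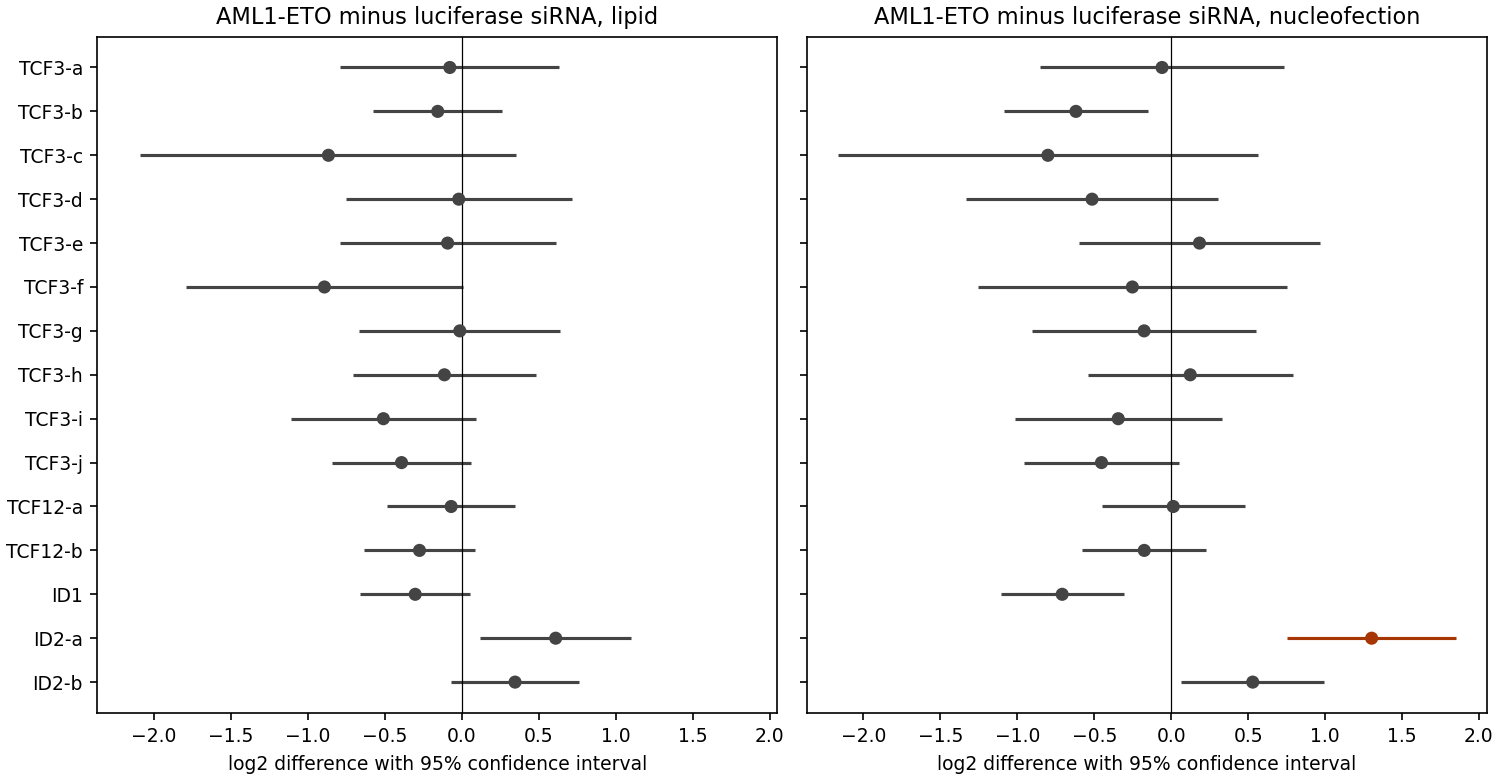
Log2 difference between AML1-ETO and luciferase siRNA by lipid (left) and by nucleofection (right) for the 15 tested probe sets, with 95% confidence intervals and the called one in red. ID2-a is called by nucleofection at 1.30, and the intervals of TCF12-a and TCF3-a span 0 in both panels.

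One TCF3 probe set, TCF3-c, stood apart from the rest. It gave 532 on the array nucleofected without siRNA and 354 on luciferase nucleofection replicate 1. On AML1-ETO lipid replicate 1 it gave 17.5, and on the other 11 arrays it lay between 51.8 and 111. Its correlations with the other TCF3 probe sets ran from -0.15 to 0.61, the highest with TCF3-i (0.61), TCF3-g (0.58) and TCF3-j (0.55). On the array without siRNA, TCF3-g (59.3) and TCF3-i (47.4) also had their highest signals of the 14 arrays, while TCF3-a (112) and TCF3-b (115) were inside the range of the other arrays. The tested probe sets of other genes most like it over the 14 arrays included RPLP2 (r = 0.94), RPL14 (r = 0.93), RPL38 (r = 0.88) and RPS10 (r = 0.88), which encode ribosomal proteins, and ENO1, a glycolytic enzyme (r = 0.88), and NUCKS1, a nuclear phosphoprotein (r = 0.87). The 18S ribosomal RNA control, with r = 0.85, gave 1463 and 985 on the arrays where TCF3-c was highest, between 95.1 and 322 on the other nucleofected arrays and between 6.94 and 62.3 on the lipid and untransfected arrays. The RPS19 probe sets had r = 0.19 and 0.10. Whether TCF3-c reads TCF3 RNA was not tested, and its mean knockdown difference of -0.83 (SE 0.42, adjusted p = 0.413) is given here for that probe set alone.

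**Figure D5:**
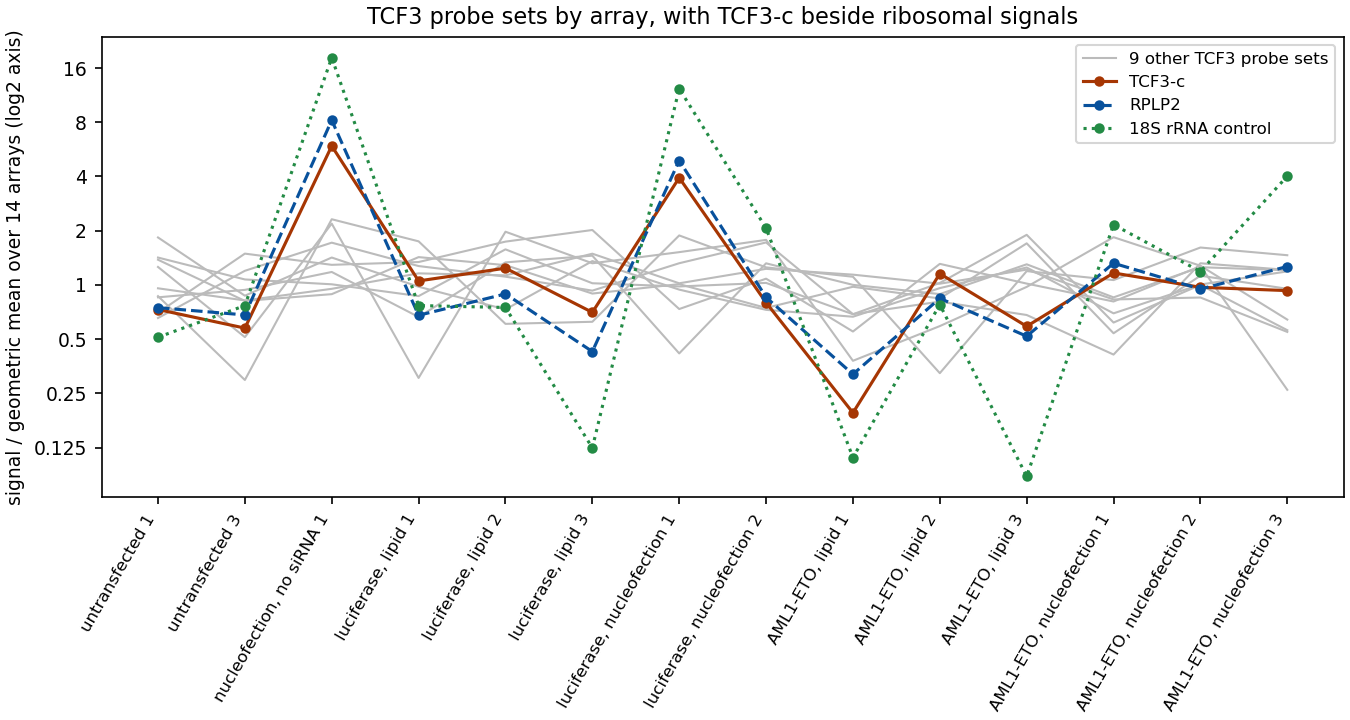
Signal divided by its geometric mean over the 14 arrays (log2 axis), by array, for TCF3-c (red), the 9 other tested TCF3 probe sets (grey), RPLP2 (blue, dashed) and the 18S ribosomal RNA control (green, dotted). TCF3-c peaks with RPLP2 and 18S on the array without siRNA (532) and on luciferase nucleofection replicate 1 (354), and 2 of the other TCF3 probe sets, TCF3-g and TCF3-i, are also highest on the array without siRNA.

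Of the 15 tested members, which are probe sets, 10 are of TCF3 and 0 of TCF4 or ID3, so medians over them mostly follow TCF3. Across the 15 the median log2 difference for the mean knockdown effect was -0.23, beside -0.07 over all 13329 probe sets tested, and 5 members had an unadjusted p under 0.05, beside 13.5% of all. By lipid the medians were -0.11 and -0.04, and by nucleofection -0.18 and -0.10. The 11 members not tested were left out of these medians because their signals were low.

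The genes around E and ID proteins were counted from lists by function, each gene by its brightest probe set. Among E protein partners, 0 of 9 tested genes passed for the mean knockdown effect (median -0.15), and LYL1, a class II partner of E proteins, gave 0.24 (adjusted p = 0.33). LMO4, a bridging protein, and GATA2, a stem cell transcription factor of the same complexes, gave -0.28 and -0.28 (adjusted p = 0.366 and 0.433). Among other helix-loop-helix regulators, 1 of 12 rose, 1 fell and 10 did not pass (median -0.10). BHLHE40, a repressor that binds E-boxes, had mean signals of 41.2 with luciferase lipid, 41.4 with luciferase nucleofection, 55.8 with AML1-ETO lipid and 87.6 with AML1-ETO nucleofection. It rose by 0.75 (SE 0.14, adjusted p = 0.0187), a call lost under 5 of 27 alternatives, among them the floor at 64 (0.22, adjusted p = 0.0719) and leaving out luciferase nucleofection replicate 1 (0.68, adjusted p = 0.0891), luciferase lipid replicate 1 (adjusted p = 0.0535) and luciferase lipid replicate 2 (adjusted p = 0.0536). TFAP4, an E-box factor downstream of MYC, fell by 0.69 (SE 0.15, adjusted p = 0.0467), and that call was lost under 19 of 27 alternatives. The difference was -0.18 (adjusted p = 0.844) with untransfected and no-siRNA arrays as controls, where the array without siRNA gave 9.83, below every AML1-ETO siRNA array, and -0.27 (adjusted p = 0.335) with the floor at 64.

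Among coactivators and corepressors of E proteins, 17 of 18 did not pass (median -0.15) and the 1 that fell was RUNX1T1, the target of the siRNA. CBFA2T3, an ETO-family corepressor, gave 0.55 (SE 0.17, adjusted p = 0.175). Of the BMP, TGF-beta and SMAD genes, the pathway best known for inducing ID genes, 0 of 24 passed by limma and 0 had an unadjusted p under 0.05 (median -0.10). SMAD3, a TGF-beta signal transducer, gave -0.25 (adjusted p = 0.424), and BMPR2, a BMP receptor, gave -0.22 (adjusted p = 0.451). In the list for turnover of ID and E proteins 1 of 12 fell, 0 rose and 11 did not pass (median -0.18). It was FZR1, the activator of the anaphase-promoting complex that directs ID2 protein for degradation. FZR1 had mean signals of 66.5 and 56.1 with luciferase and AML1-ETO siRNA by lipid and 82.3 and 44.5 by nucleofection. Its mean difference was -0.57 (SE 0.12, adjusted p = 0.0432), a call lost under 20 of 27 alternatives. It was -0.26 (adjusted p = 0.697) with untransfected and no-siRNA arrays as controls, where the untransfected mean signal was 58.4, and -0.22 (adjusted p = 0.075) with the floor at 64.

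E protein target genes of lymphoid cells gave 0 of 10 past the threshold by limma, with 0 at an unadjusted p under 0.05 (median 0.01). FOXO1, a transcription factor of lymphocyte progenitors, gave 0.26 (adjusted p = 0.453) and NOTCH1, a receptor that starts T cell fate, -0.18 (adjusted p = 0.67). Plasmacytoid dendritic cell genes linked to TCF4 gave 0 of 7 (2 at an unadjusted p under 0.05, median 0.04). Of these, IRF8, a myeloid and dendritic transcription factor, gave 0.68 (SE 0.16, adjusted p = 0.0657), and BCL11A, a lymphoid and dendritic transcription factor, gave -0.51 as the mean (adjusted p = 0.121) and fell by 0.92 by nucleofection (adjusted p = 0.0422). Cell cycle genes regulated through E and ID proteins gave 0 of 15 (2 at an unadjusted p under 0.05, median -0.10). CCND2, a D-type cyclin, gave -0.32 (adjusted p = 0.182) and CDKN1B, the inhibitor p27, gave 0.32 (adjusted p = 0.356).

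Markers of other cells were read the same way. Of the Kasumi-1 markers 0 of 9 passed (1 at an unadjusted p under 0.05). Of lymphoid and plasma cell markers 1 of 8 rose and 1 fell. Both passed the filter on mean log2 signal only through arrays where they were high. For NKG7 these were the AML1-ETO siRNA arrays, and for CD5 they were nucleofected arrays, so the calls are no separate support. NKG7, a cytotoxic granule gene, was below the floor on all 8 arrays without AML1-ETO siRNA and gave mean signals of 32.9 by lipid and 53.8 by nucleofection with it, at least 1.61-fold and at least 2.69-fold above the floor. CD5, a T cell receptor regulator, was below the floor on all lipid and untransfected arrays. By nucleofection it had a mean signal of 61.5 in the luciferase group. In the AML1-ETO group it was below the floor on 2 of 3 arrays and 28.4 on the other, at least 2.73-fold lower. With untransfected and no-siRNA arrays as controls its mean difference was -0.16 (adjusted p = 0.823). The summed signal of the 11 lymphoid markers on the array ran from 362 to 450 on luciferase arrays and from 311 to 476 on AML1-ETO siRNA arrays. Among these, SDC1, CD3E and CD22 were above the floor on all 14 arrays, with median signals of 116, 50.9 and 50.2. TNFRSF17 was below the floor on all 14 arrays, CD3D on 11 and KLRD1 on 9. Of markers of cells outside the blood 0 of 7 passed (2 at an unadjusted p under 0.05). Their summed signal over 13 genes ran from 492 to 578 on luciferase and AML1-ETO lipid arrays alike, and from 335 to 426 on nucleofected arrays with siRNA. EPCAM, COL1A1 and DCN were above the floor on every array, with median signals of 188, 89.4 and 50.5. KRT19 and CDH5 were below it on every array. The part of these markers in the ID1 and ID2 results was not tested.

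The genes with patterns most like each leading probe set were found by Pearson correlation of log2 signals over the 14 arrays, which share group structure and scaling. For ID2 they were TESC, a calcium-binding protein (r = 0.93), RASSF2, a Ras-association protein (r = 0.92), and CEACAM6, a granulocyte adhesion molecule (r = 0.91). All 3 were called higher with AML1-ETO siRNA. Because they were chosen for likeness to ID2-a on these same arrays, their calls are no separate support for its rise. TESC had mean signals of 99.4 and 153 with luciferase and AML1-ETO siRNA by lipid and 111 and 211 by nucleofection (mean difference 0.77, adjusted p = 0.00408). CEACAM6 was higher by at least 1.62, a bound because both luciferase nucleofection arrays lay below the floor. For ID1 they were MTCH2, a mitochondrial outer membrane protein (r = 0.97), TSPAN3, a tetraspanin (r = 0.96), and IGFBP4, an insulin-like growth factor binding protein (r = 0.96). IGFBP4 had mean signals of 405 and 341 with luciferase and AML1-ETO siRNA by lipid and 217 and 85.7 by nucleofection, and it alone of these was called for the knockdown (-0.81, adjusted p = 0.0106). For TCF12 they were UBA3 (r = 0.97), ITGB1BP1 (r = 0.93) and KAT6B (r = 0.93), and for TCF3-a they were MRPS10 (r = 0.94), RACGAP1 (r = 0.88) and NARS2 (r = 0.88), and 0 of these 6 were called by limma for the knockdown mean.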

How the data were processed

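RNA of 14 arrays was labelled from an oligo-dT primer, per the labels' protocols. The deposited values are intensities on a linear scale, 1 per probe set, computed by the authors in MAS5 (named in the submitters' processing notes; settings not given in the sources used here) and multiplied by 1 scale factor per array, per the labels. All arrays share 1 mean, which hides any shift common to most genes.

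A floor of 20 was set before log2 was taken, which understates differences of dim genes. The 68 control probe sets were left out, and the upper 60% by mean log2 signal after the floor, 13329 of 22215, were tested. Their geometric mean signal after the floor was 22.5 or more. In R 4.3.3 with limma 3.58.1, 6 group means were fitted by lmFit and eBayes (8 residual degrees of freedom, prior 5.05), with calls below an adjusted p of 0.05 (Benjamini-Hochberg over all those tested). Of 22215 probe sets, 19065 had 1 symbol, 1043 several and 2107 none. In simulated data for the mean knockdown effect, over 13329 probe sets, 15% of log2 changes of 0.5 and 92% of changes of 1 were recovered, with 4 false among 111 calls.

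Named were the member probe sets (the dimmest as a range of letters), for each leading probe set (brightest per gene, where tested) the 3 most correlated, RUNX1T1, and from each list the called genes and examples among the 4 with the smallest p. Probe set TCF3-c, its companions and NKG7 and CD5 signals were examined after their values were seen. The members and lists were chosen with earlier results of these data known. Promoters came from RefSeq (GRCh38.p14). Figures were drawn with Python 3.11.15, pandas 2.3.3, numpy 2.4.6 and matplotlib 3.10.9. Alternatives changed scaling, floor, filter, features, variance model, arrays, controls, covariates and single arrays.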

Additional observations from a re-analysis of the deposited data

Results flagged for a closer look

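The array nucleofected without siRNA was not part of the 9 comparisons fitted, and 2 tested TCF3 probe sets were more than 2 times higher on it than on either untransfected array. TCF3-c gave 532 there, 8.09 times the highest untransfected signal of 65.7, and TCF3-g gave 59.3, 2.67 times the highest untransfected signal of 22.2. The same array had the highest 18S ribosomal RNA signal of the 14, at 1463. Its part in these values was not tested, and the group holds 1 array.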

How the results depend on the processing

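For the mean knockdown effect the count of members called was 1, and it was 0 with the floor at 64, 0 without a filter on dim probe sets, 2 with the upper 40% of probe sets, and 0 to 1 when single arrays were left out. By nucleofection the count of 1 became 2 with quantile normalization, 0 without a filter, 2 with the upper 40%, 0 without the 2 arrays of highest 18S ribosomal RNA signal (chosen after seeing the data), and 0 to 1 when single arrays were left out. For lipid against nucleofection the count of 1 became 2 with quantile normalization, 2 with the upper 40% and 2 with an intensity trend and robust prior, and ran from 1 to 3 when single arrays were left out. For luciferase nucleofection against untransfected cells the count of 0 became 1 with arrays centred on their medians. For AML1-ETO nucleofection against untransfected cells it ran from 0 to 3 when single arrays were left out, with 0 without untransfected replicate 1. The causes were not tested. Over all probe sets the mean knockdown effect gave 165 calls among 13329 tested, 252 with the floor at 64 (8849 tested), 90 with untransfected and no-siRNA arrays as controls, 107 without the 2 arrays of highest 18S signal, and 99 to 165 when single arrays were left out. Centring arrays on their medians moved the AML1-ETO against luciferase differences by 0.13 by nucleofection, 0.05 by lipid and 0.09 for the mean, and the small mean differences of TCF3-a and TCF12-a became 0.02 and 0.06, against -0.07 and -0.03.

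No pairing by replicate number was seen in the signals. Deviations of 22 same-numbered pairs correlated between -0.29 and 0.06, 0 of them above 0.1, and 3 of 13 arrays correlated best with their own number. With so few arrays per group, these values cannot show whether same-numbered samples were set up together. With the replicate number as a block, 107 probe sets were called for the mean knockdown effect, ID2-a gave 0.90 (adjusted p = 0.012), and 2 members were called for lipid against nucleofection.

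Dim signal kept 11 of 26 member probe sets out of the tests, and groups of 1 to 3 arrays limit the precision of the others.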
